A study of Mus musculus with 7 samples.

Results

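The 10 genes described here are the alpha- and beta-tubulin genes that the count table lists under the symbols Tuba1a, Tuba1b, Tuba1c, Tuba4a, Tubb2a, Tubb2b, Tubb3, Tubb4a, Tubb4b and Tubb5, out of 27998 genes in all. They were chosen by symbol, and the family was selected on a value already seen in these data, the high level of Tubb3 in ectopic cells, so that the level of Tubb3 is given as a description and supports nothing further. The question was whether the other members of the family followed Tubb3 or moved against it. Alpha- and beta-tubulin join into the dimers from which microtubules are built, and vertebrates encode both as families of near-identical isotypes that differ mainly in the last residues of the protein. Oligodendrocyte precursors (OPCs) and the myelinating cells they form depend on microtubules for the growth of processes and for the transport of messenger RNA into the myelin sheath. Tubb4a is the beta-tubulin best known from mature oligodendrocytes, whereas Tubb3 (class III beta-tubulin) is widely used as a marker of neurons.

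Oligodendrocyte lineage cells (OLCs) were profiled by single-cell RNA sequencing after they had been sorted from the brains of mice at postnatal day 90 on a mixed C57BL/6-B6CBA background. All mice carried Emx1-Cre, which is active in dorsal forebrain progenitors, together with the Sox10-GFP-TdTom reporter, which switches from GFP to TdTom where Cre has acted and which the Sox10 promoter drives in OLCs. Control dOLCs were the TdTom-positive cells and control vOLCs the GFP-positive cells of these control mice, that is, cells of dorsal and ventral origin. Ectopic vOLCs were the GFP-positive cells of mice that also carried Sox10-GFP-DTA, in which diphtheria toxin ablates OLCs of dorsal origin and ventral cells take their place; these mice thus hold a further GFP cassette that the controls lack. The study used 4 control and 2 ablated mice, of both sexes, and each condition was 1 library in which mice cannot be told apart.

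Without replicate libraries, no test between conditions was possible, and none is given. For each library, the unique molecular identifiers (UMIs) of a cell type were added up, and a level is a gene's UMIs per 1000000 of that total (CPM). Differences are log2 ratios of CPM, in which each unit is a doubling. Intervals are 95% exact intervals (Poisson for levels, binomial for ratios and shares), and they hold counting error alone, since mice and libraries could not be compared for spread. In summed counts, fewer cells with a transcript and less transcript per cell cannot be told apart, and values per cell are therefore given for Tubb3. Control dOLCs gave 5804 kept cells at a median of 3489.5 UMIs, control vOLCs 925 at 5022 and ectopic vOLCs 2562 at 5318.5. The 10 members took 0.445%, 0.486% and 0.516% of all UMIs. In every library the 5 OPC markers were highest in the cluster the authors annotated OPC and the 7 mature oligodendrocyte markers lowest there, and microglial markers stayed below 4 CPM in every cluster.

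The isotypes are so alike that it matters which counts can be assigned to a gene. All 10 genes have 4 exons in the transcript used, and their positions are those of GENCODE on GRCm38, the build that the labels call mm10. Tubb3 lies at chr8:123411424-123422015 on the plus strand, Tubb4a at chr17:57080066-57087782 and Tubb5 at chr17:35833921-35838306, both on the minus strand. Tuba1a (chr15:98949837-98953703) and Tuba1b (chr15:98931425-98934565) are neighbours on the minus strand of chromosome 15, with Tuba1c close by (chr15:99029891-99038110). Tubb2a and Tubb2b also sit side by side (chr13:34074274-34078007 and chr13:34126748-34130466), while Tubb4b (chr2:25222160-25224702) and Tuba4a (chr1:75214228-75219865) stand alone. Over the coding sequence, Tubb3 shared between 81.4% and 83.6% of its bases with the other beta members, compared with 96.5% between Tubb2a and Tubb2b and 98.3% between Tuba1a and Tuba1b.

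The coding ends of the beta members are shown because they encode the acidic tail in which isotypes differ, and because the libraries were read from the 3′ end of the transcript. Each line gives the last 60 coding bases from GENCODE on GRCm38, 5′ to 3′, with the stop codon in capitals.
Tubb3: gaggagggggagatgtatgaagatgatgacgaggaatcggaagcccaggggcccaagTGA
Tubb2a: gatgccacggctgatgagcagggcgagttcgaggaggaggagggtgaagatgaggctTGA
Tubb2b: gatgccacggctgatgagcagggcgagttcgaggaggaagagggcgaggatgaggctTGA
Tubb4a: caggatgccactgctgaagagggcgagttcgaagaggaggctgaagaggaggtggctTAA
Tubb4b: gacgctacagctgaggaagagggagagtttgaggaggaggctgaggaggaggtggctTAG
Tubb5: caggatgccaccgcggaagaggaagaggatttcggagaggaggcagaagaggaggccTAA

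Tubb3 had the same base as another beta member at only 40.0% to 45.0% of these 60 positions. No run of 50 bases in the last 500 bases of its transcript was found in any other GENCODE gene, and the same held for Tuba4a, Tubb2b, Tubb4a and Tubb5. In contrast, 54.8% of the 50-base runs at the end of Tuba1a also occurred in Tuba1b or Tuba1c, the share was 51.4% for Tuba1b and 68.1% for Tuba1c, and 41.0% of those of Tubb2a occurred in Tubb2b or Tubb4a. Of the runs of Tubb4b, 35.3% occurred in pseudogenes. The counts of these 5 genes are therefore uncertain, as reads from shared stretches may have been dropped or assigned to another copy, and the sum of Tuba1a, Tuba1b and Tuba1c is firmer than its parts. Tubb3 lies within the read-through gene Gm20388, which had 0 UMIs in MOL5/6 and in OPCs of every library. Tuba4a overlaps Stk16 and Tubb4b overlaps Fam166a, each on the opposite strand.

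Tubb3 was the member with the widest gap between libraries. In MOL5/6, the mature oligodendrocytes that make up most of the data and here join the clusters MOL5/6a to MOL5/6d, its level was 7.48 CPM (6.15 to 9.01) for control dOLCs, 9.59 (6.37 to 13.9) for control vOLCs and 95.1 (89.3 to 101) for ectopic vOLCs. In OPCs, it had 12.2 CPM (8.34 to 17.2), 10.1 (2.76 to 25.9) and 131 (111 to 153). Both controls were low and overlapped within counting error, and the ectopic library stood apart from both. Relative to control dOLCs, ectopic cells had a log2 ratio of 3.67 (3.38 to 3.96) in MOL5/6 and 3.42 (2.87 to 4.02) in OPCs, and relative to control vOLCs 3.31 (2.77 to 3.91) and 3.69 (2.30 to 5.58).

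The level of Tubb3 in ectopic cells varied with the cluster. It was highest in MOL2a, with 231 CPM (197 to 270), followed by MOL2b with 190 (162 to 221), whose intervals overlapped, and by OPCs with 131. MOL5/6a with 100 CPM (90.8 to 111), MOL5/6d with 94.6 (87.0 to 103), MOL1 with 90.7 (66.6 to 121) and MOL5/6c with 65.5 (40.5 to 100.1) overlapped one another. MFOLb had 55.7 CPM (30.4 to 93.4), and MOL5/6b had 28.8 (7.85 to 73.7) from 4 UMIs in 42 cells. In control dOLCs the 10 clusters ran from 2.00 to 12.2 CPM only, with the lowest value in MFOLb and the highest in OPCs. MFOLb is named for myelin-forming oligodendrocytes. COP and NFOL markers had 136 CPM there in control dOLCs and 71.6 in ectopic vOLCs, and mature oligodendrocyte markers 47929 and 53530. Its 6 astrocyte markers, at 2254 and 1837 CPM, were the highest of any cluster in these libraries, and their part in its values was not tested.

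The exception was COP/NFOL/MFOLa, named by the authors for committed precursors and for newly formed and myelin-forming oligodendrocytes. Its COP and NFOL markers, at 2289 CPM in control dOLCs and 2417 in ectopic vOLCs, were the highest of any cluster in these libraries. Its mature oligodendrocyte markers, at 66480 and 72137 CPM, were also above those of MOL5/6, at 54557 and 62642. Its 22 ectopic cells held 1 UMI of Tubb3, or 6.69 CPM (0.169 to 37.3), and the 76 cells of control dOLCs held 4 UMIs, or 8.02 CPM (2.19 to 20.5). The log2 ratio was −0.26, with an interval from −5.88 to 3.08, so that a difference was not detectable at this depth. The upper bound of the ectopic level in these cells was nonetheless below the lower bounds in OPCs, MOL1, MOL2a, MOL2b, MOL5/6a, MOL5/6c and MOL5/6d of the same library. Only 13 cells of control vOLCs fell in this cluster, and their level is not given.

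**Figure D1:**
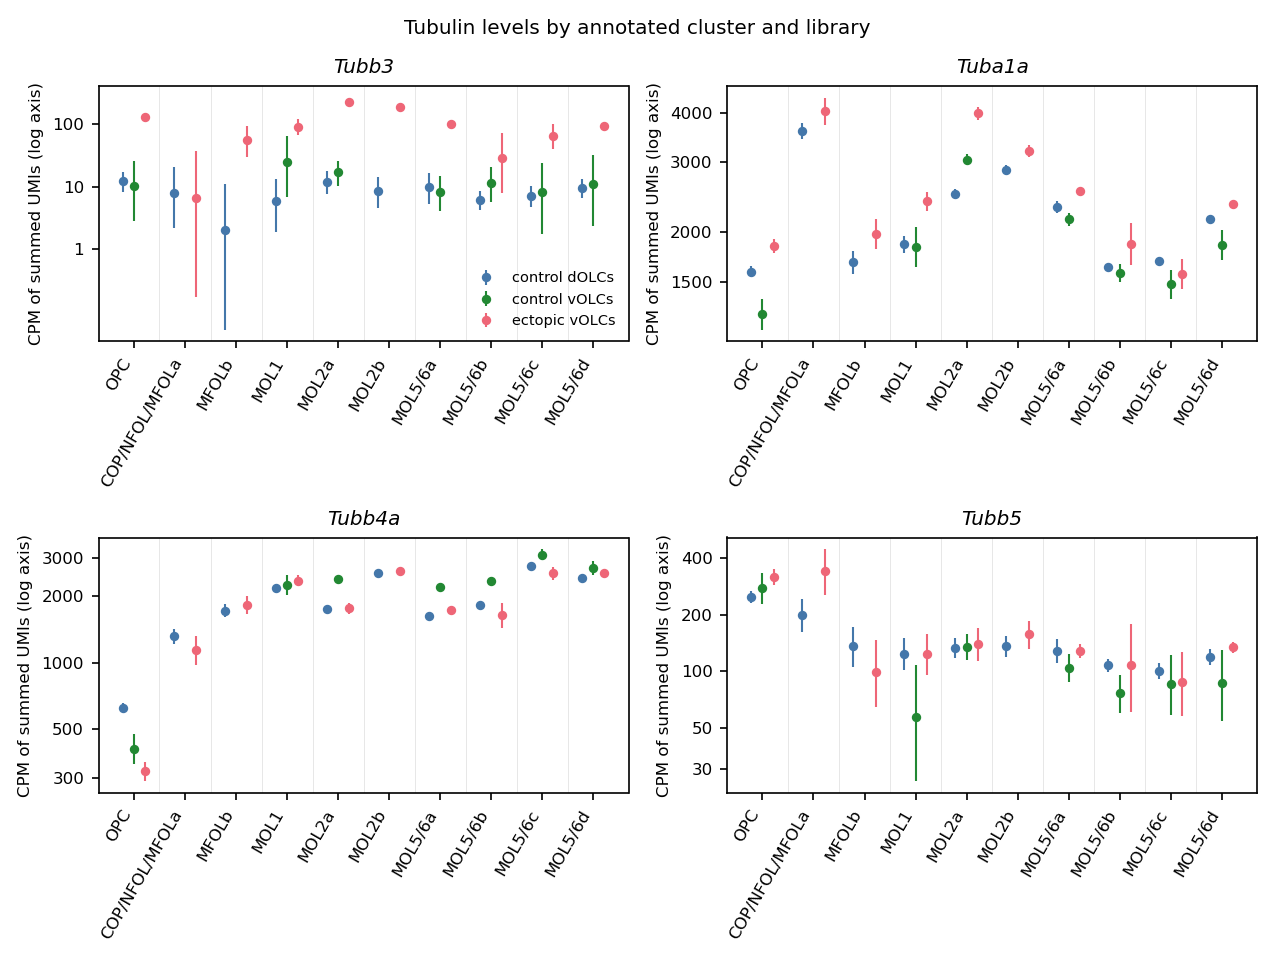
CPM of summed UMIs (log axis) for Tubb3, Tuba1a, Tubb4a and Tubb5 in each annotated cluster with at least 20 cells of a library; points are libraries and bars are 95% Poisson intervals of counting error. Tubb3 of ectopic vOLCs lies above control dOLCs in every cluster but COP/NFOL/MFOLa, where 1 UMI was counted, and above control vOLCs in the 7 clusters in which these have a level, while over the clusters the log2 ratio to control dOLCs runs from −0.11 to 0.67 for Tuba1a, from −0.96 to 0.11 for Tubb4a and from −0.45 to 0.78 for Tubb5.

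Tubb3 UMIs were spread over many ectopic cells rather than held by a few. In MOL5/6, 34.9% of 1842 ectopic cells had at least 1 UMI (32.7% to 37.1%), compared with 2.81% of 3777 cells of control dOLCs (2.30% to 3.38%) and 4.28% of 561 cells of control vOLCs (2.76% to 6.30%). In OPCs, the shares were 31.2% of 330 ectopic cells, 3.63% of 853 cells of control dOLCs and 3.31% of 121 cells of control vOLCs. The median depth of these MOL5/6 cells was 5478.5 UMIs in ectopic vOLCs, 3491 in control dOLCs and 5069 in control vOLCs, and for OPCs it was 3421.5, 2795 and 3454. With every cell thinned to 1000 UMIs, 8.09% of ectopic MOL5/6 cells kept a UMI (6.88% to 9.43%), against 0.662% in control dOLCs and 0.713% in control vOLCs. In thinned OPCs the shares were 12.7%, 0.938% and 0.826%. No sorted cell type is known to lack Tubb3 altogether, so that no background share was available. The control shares describe their own libraries and set no background for the ectopic library, where the part of free RNA was not tested.

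**Figure D2:**
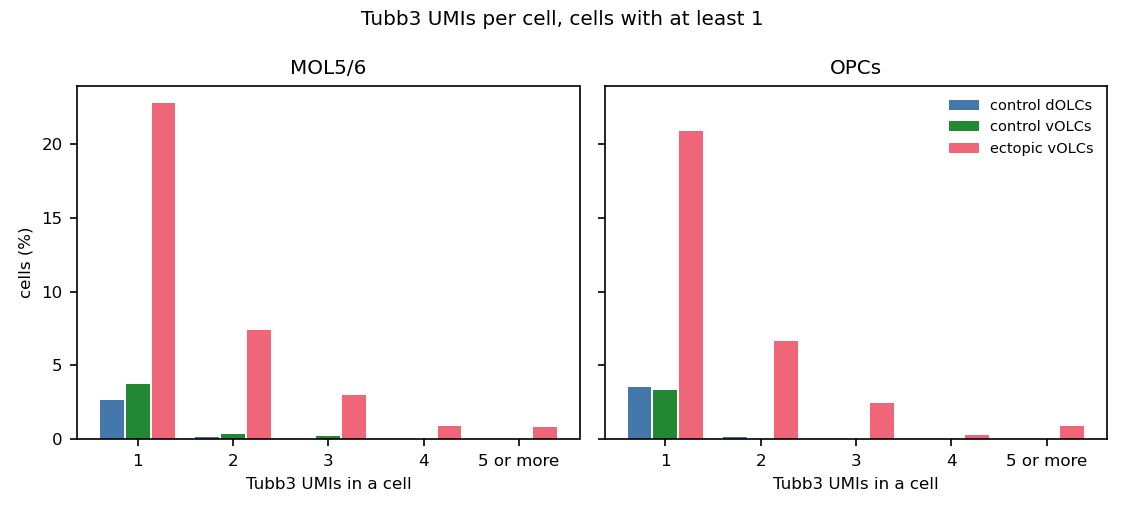
Percent of cells (linear axis) with 1, 2, 3, 4 or at least 5 UMIs of Tubb3 in MOL5/6 and OPCs of the 3 libraries, unthinned; bars are single libraries without error bars. In MOL5/6, 22.8% of ectopic cells held exactly 1 UMI and 7.38% held 2, and no control cell in either panel held 4 or more.

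Neurons are the cells in which Tubb3 is usually seen, so their markers are given beside it. The 12 neuronal markers together had 43.8 CPM in MOL5/6 of control dOLCs, 28.4 for control vOLCs and 26.6 for ectopic vOLCs, so that they were not higher where Tubb3 was. In OPCs, which express several of these genes themselves, they had 1282, 1492 and 1392 CPM, of which Meg3 made up 1026, 1186 and 1114. Of the 5 markers past the filter in OPCs, Gap43, a growth-cone protein, was higher by 1.5-fold or more against both controls, with 27.0, 15.2 and 40.8 CPM and log2 ratios of 0.59 (0.04 to 1.14) and 1.42 (0.20 to 2.94). Over all genes in OPCs, 5.34% were that much higher against control dOLCs and 18% against control vOLCs. The other markers past the filter, Snap25, Meg3, Map2 and Gad1, were at 0.13, 0.12, 0.17 and −0.22 against control dOLCs. Against control vOLCs they were at −0.14, −0.09, −0.37 and −0.40, so that Gap43 was the only one higher there, over 6 UMIs in that control. Rbfox3, the defining marker of mature neurons, had 17, 0 and 5 UMIs in MOL5/6 of control dOLCs, control vOLCs and ectopic vOLCs, and 5, 0 and 0 in OPCs. In MOL5/6 cells without a UMI of Rbfox3, Snap25, Syt1 or Meg3, the log2 ratio of Tubb3 to control dOLCs was 3.68, about as large as in all cells. In OPCs few cells lack these UMIs (17 ectopic cells and 71 of control dOLCs), and the ratio there, 5.04, rests on 9 ectopic UMIs against 1.

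Of the 3 genes on each side of Tubb3, those with enough UMIs to compare had far smaller ratios. Tcf25, upstream of it, had 169 CPM in MOL5/6 of control dOLCs, 143 for control vOLCs and 183 for ectopic vOLCs, and Afg3l1, downstream, had a log2 ratio to control dOLCs of 0.06 (−0.08 to 0.21). Def8, the next gene downstream, had 13.1, 13.4 and 20.1 CPM, a log2 ratio to control dOLCs of 0.61 (0.32 to 0.90). In OPCs it had 26.3, 12.7 and 51.6, a ratio to control dOLCs of 0.97 (0.45 to 1.49). Spire2 in OPCs had 8.38, 20.3 and 16.6 CPM from 22, 8 and 20 UMIs, a ratio of 0.99 (0.04 to 1.93). Tcf25, Afg3l1 and Dbndd1 in OPCs were at 0.05, −0.21 and 0.13, each with an interval across 0. Mc1r, Spire2 and Dbndd1 held between 0 and 6 UMIs in MOL5/6 of any library.

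Among the other 9 members, Tuba1a and Tubb4a accounted for most of the family in oligodendrocytes. In MOL5/6 of control dOLCs, Tubb4a held 49.7% of the UMIs of the 10 members (49.3% to 50.1%) and Tuba1a 41.2% (40.8% to 41.6%), and Tubb3 held 0.168%. Each UMI marks 1 molecule whatever the length of its transcript, so that these shares need no length scaling. In ectopic MOL5/6, Tuba1a held 46.5%, Tubb4a 43.1% and Tubb3 1.84%. Counted over the 6 beta members alone, Tubb3 went from 0.307% in control dOLCs and 0.367% in control vOLCs to 3.71% in ectopic MOL5/6, and in OPCs from 0.990% and 0.995% to 11.1%. In ectopic MOL5/6, Tubb3 was far below Tubb4a (86.8% of beta UMIs) and below Tubb5 (5.07%), close to Tubb4b (3.48%) and above Tubb2a (0.461%) and Tubb2b (0.476%). In ectopic OPCs, it was below Tubb4a (27.2%) and Tubb5 (27.0%), and its interval overlapped those of Tubb2b (13.0%), Tubb4b (11.6%) and Tubb2a (10.1%).

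Tuba1a, the alpha-tubulin best known from the developing brain, was somewhat higher in ectopic cells. In MOL5/6 it had 1835 CPM for control dOLCs, 1856 for control vOLCs and 2404 for ectopic vOLCs. The controls were close and the ectopic library lay above both, at a log2 ratio of 0.39 (0.36 to 0.41) to control dOLCs and 0.37 (0.33 to 0.42) to control vOLCs. The libraries fill the MOL5/6 subclusters unequally, and with the 4 subclusters at equal weight the ratio to control dOLCs was 0.10. In OPCs, it had 1591, 1244 and 1847 CPM, so that the controls differed from each other by more than the ectopic library from control dOLCs (log2 ratio 0.21, 0.14 to 0.29). Across clusters, Tuba1a was above control dOLCs in 9 of 10, with an interval above 0 in each of the 9, and above control vOLCs in 7 of 7, with an interval above 0 in 6. Its ratio to control dOLCs was highest in MOL2a, at 0.67, where the levels were 2504, 3051 and 3987 CPM. These clusters share 1 library per condition and are not replicates.

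Tubb4a did not follow. In MOL5/6 it had 2214 CPM for control dOLCs, 2412 for control vOLCs and 2224 for ectopic vOLCs. The ectopic level was thus close to the dorsal control, at a log2 ratio of 0.01 (−0.02 to 0.03), and was lower than the ventral control, at −0.12 (−0.16 to −0.08). Across clusters, the interval against control vOLCs lay below 0 in 5 of 7, while against control dOLCs it lay above 0 in 3 of 10 and below 0 in 2. These small ratios rest on the scaling: with TMM factors the median log2 ratio of all genes in MOL5/6 moved by 0.17, and Tubb4a with it to 0.18, and against control vOLCs Tubb4a turned from −0.12 to 0.03.

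Of the beta members at lower levels, Tubb5, which most dividing cells express, had 110, 91.1 and 130 CPM in MOL5/6 of control dOLCs, control vOLCs and ectopic vOLCs. Its log2 ratio was 0.24 (0.13 to 0.34) against the dorsal and 0.51 (0.32 to 0.71) against the ventral control, and the controls also differed, at −0.28 (−0.47 to −0.09) for ventral to dorsal. With the 4 MOL5/6 subclusters at equal weight, the ratio to the dorsal control was 0.0039. Tubb4b had 81.8, 75.7 and 89.1 CPM, with a ratio to control dOLCs of 0.12 that turned to −0.03 under equal weight. Tuba1b had 172, 170 and 189 CPM, and neither passed 1.5-fold. Tubb2a and Tubb2b lay between 11.8 and 14.6 CPM in each library with overlapping intervals. Tuba4a had 9.37, 7.88 and 9.08 CPM, and Tuba1c had between 3 and 6 UMIs in each library.

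A threshold of 1.5-fold stands in for a test here. It was applied to genes that reached 50 UMIs over both libraries and were detected in 10% or more of the cells of either. In MOL5/6, 6 of the 10 members passed that filter against control dOLCs, Tubb3 only through the ectopic library, and Tubb3 was the 1 member past 1.5-fold, in the higher direction. Over all 5218 genes, 1.13% were higher and 11.5% lower by that much, and the median log2 ratio was −0.03, compared with 0.14 for the 5 members without Tubb3. Against control vOLCs the same 6 members passed the filter and Tubb3 alone was higher, with a background of 1.46% higher and 12.4% lower. Between the controls, ventral against dorsal, none of the 5 members that passed was past 1.5-fold, with a background of 2.56% higher and 0.731% lower. The family had been selected for Tubb3, and nothing is read from these counts about it.

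**Figure D3:**
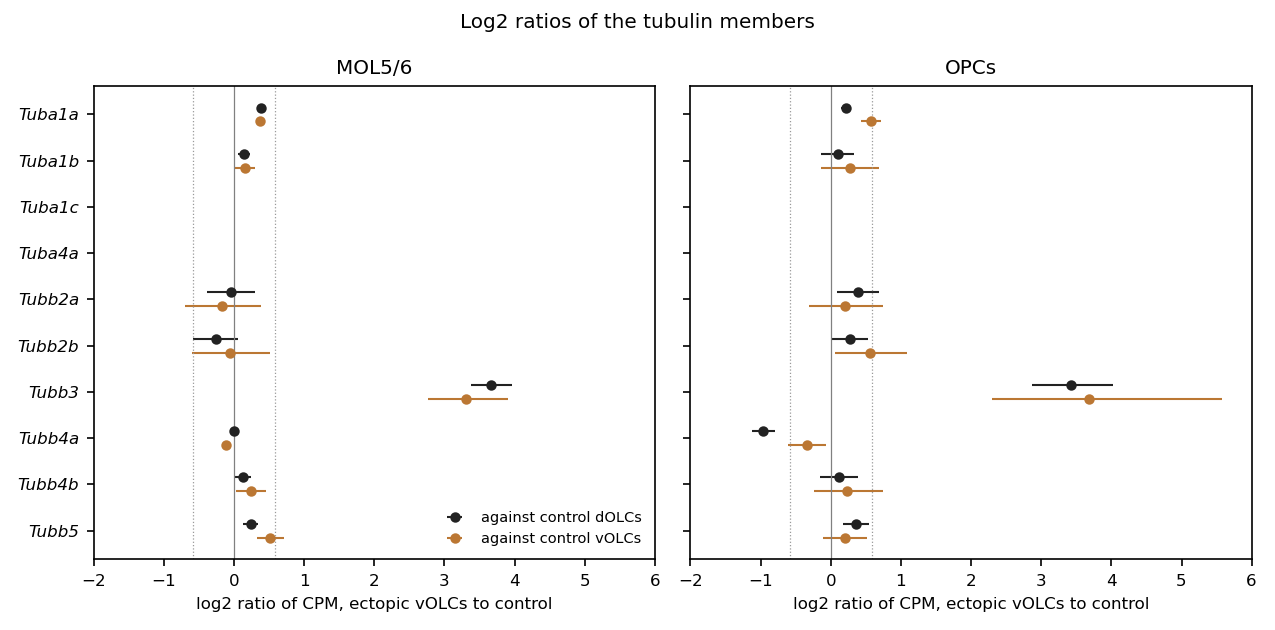
Log2 ratio of CPM (horizontal axis) of ectopic vOLCs to control dOLCs and to control vOLCs for the members in MOL5/6 and in OPCs; bars are 95% binomial intervals of counting error and dotted lines mark 1.5-fold in either direction. Tubb3 lies between 3.31 and 3.69 in both cell types and against both controls, all other points lie between −0.96 and 0.57, and Tuba1c and Tuba4a are left out for their few UMIs.

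The whole family was slightly higher in ectopic MOL5/6, and Tubb3 was a small part of that gap. The 10 members summed to 4457 CPM for control dOLCs, 4649 for control vOLCs and 5164 for ectopic vOLCs. Of the 708 CPM between ectopic vOLCs and control dOLCs, Tuba1a made up 568 and Tubb3 87.6. Without Tubb3, the other 9 members had a log2 ratio of 0.19 (0.17 to 0.20) to control dOLCs and 0.13 (0.10 to 0.16) to control vOLCs. The beta members without Tubb3 were at 0.02 (−0.00 to 0.04) and −0.08 (−0.11 to −0.04), whereas the alpha members summed were at 0.37 (0.34 to 0.39) and 0.35 (0.31 to 0.40). On this scale, the beta paralogs were within counting error of control dOLCs and slightly below control vOLCs, where Tubb4a was lower by 187 CPM and Tubb3 higher by 85.5. The value depended on the scaling and on the make-up of the class. With TMM factors, which shift all genes by 0.17 and 0.15 against the dorsal and the ventral control, the beta members without Tubb3 were at 0.19 and 0.07, and with DESeq2's size factors at 0.21 and 0.08. These factors move every gene alike, so that the place of the beta sum among all genes is the same under each. With the 4 subclusters at equal weight, the beta members without Tubb3 were at −0.03 against the dorsal and −0.25 against the ventral control, and Tubb4a was at −0.29 against the latter.

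**Figure D4:**
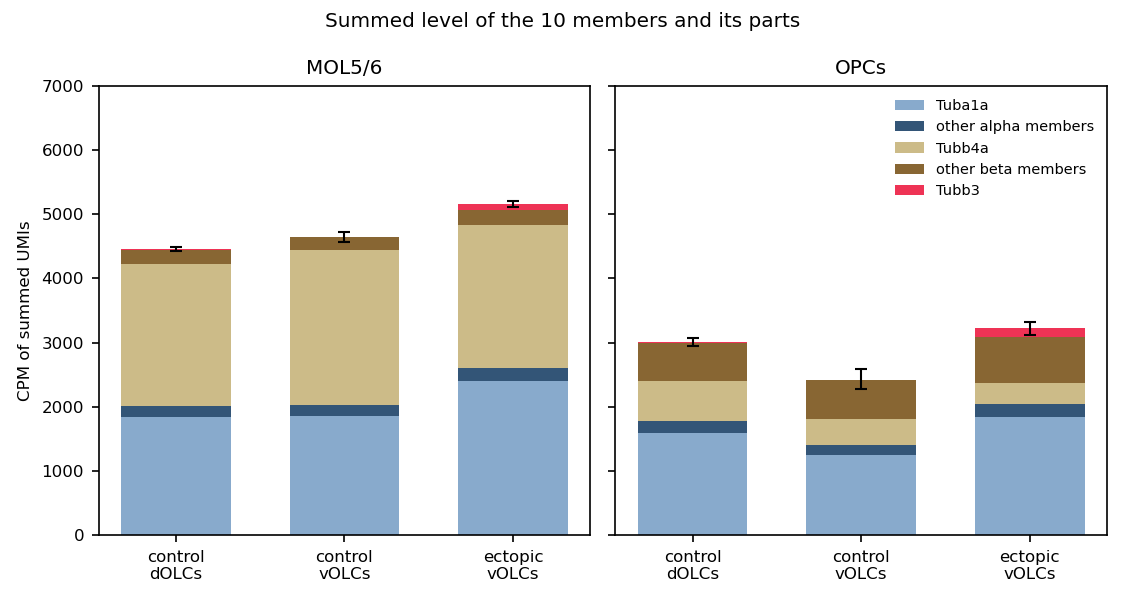
Summed level of the 10 members in CPM (linear axis from 0) in MOL5/6 and OPCs, divided into Tuba1a, the other alpha members, Tubb4a, the other beta members and Tubb3; error bars are 95% Poisson intervals of the total. Tuba1a makes up most of the added height in ectopic MOL5/6, and the Tubb3 layer, 95.1 CPM in MOL5/6 and 131 in OPCs, is thin beside it.

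The higher sum in MOL5/6 went together with a different make-up of that class. Of ectopic MOL5/6 cells, 48.9% were MOL5/6a and 45.4% MOL5/6d, whereas 51.5% of those of control dOLCs were MOL5/6b and 24.6% MOL5/6c, and control vOLCs were mostly MOL5/6a (42.2%) and MOL5/6b (42.1%). The 4 subclusters differ in their tubulin level within a library, as in control dOLCs, where Tuba1a ran from 1638 CPM in MOL5/6b to 2318 in MOL5/6a. Within subclusters, the other 9 members had log2 ratios to control dOLCs of 0.10, 0.00, −0.12 and 0.09, from MOL5/6a to MOL5/6d. The ratios of Tuba1a were 0.14, 0.19, −0.11 and 0.13 in the same order. With the 4 subclusters at equal weight, the ratio of the other 9 members went from 0.19 to 0.02, that of Tuba1a from 0.39 to 0.10 and that of Tuba1b from 0.14 to −0.19. Tubb2a and Tubb2b, with few UMIs, went to −0.55 and −0.62, and Tubb3 was at 3.16 under the same weights. The subclusters are the authors' and come from the expression of these same cells.

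**Figure D5:**
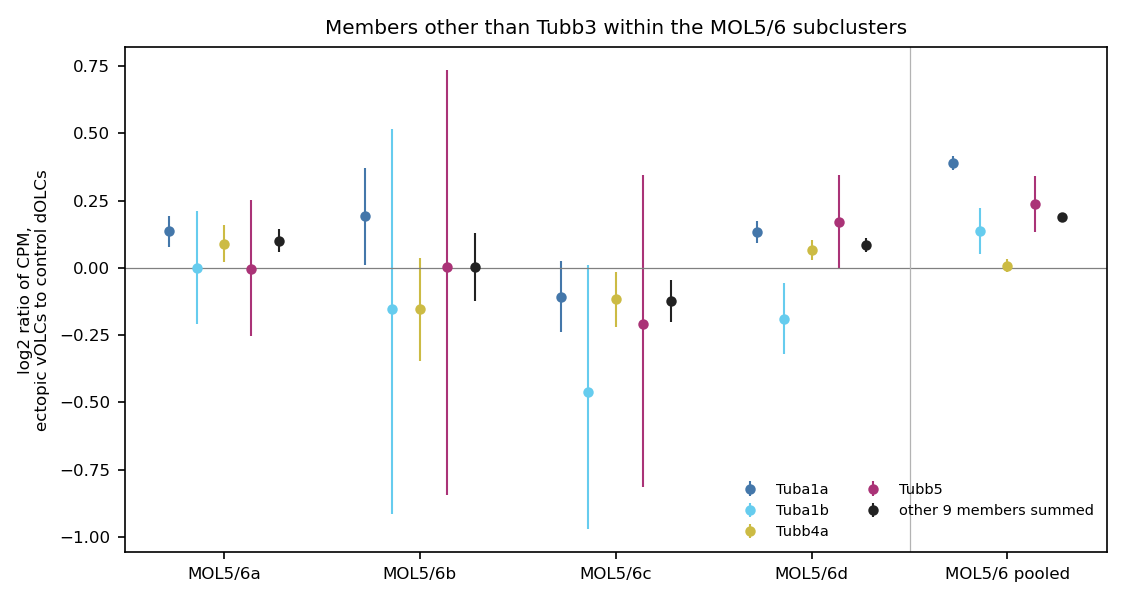
Log2 ratio of CPM (vertical axis) of ectopic vOLCs to control dOLCs for Tuba1a, Tuba1b, Tubb4a, Tubb5 and the 9 members other than Tubb3 summed, within each MOL5/6 subcluster and over all MOL5/6 cells; bars are 95% binomial intervals of counting error. The ratio of the summed members is 0.19 over all cells but lies between −0.12 and 0.10 within subclusters.

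In OPCs the members moved in different directions. Tubb4a had 624 CPM (594 to 655) in OPCs of control dOLCs, 405 (345 to 473) for control vOLCs and 321 (290 to 355) for ectopic vOLCs. It was highest in the dorsal control, and the intervals of both ventral libraries just overlapped. In ectopic OPCs, the log2 ratio was −0.96 (−1.12 to −0.80) against the dorsal and −0.34 (−0.61 to −0.06) against the ventral control, and control vOLCs were themselves at −0.62 (−0.87 to −0.39) against control dOLCs. Tubb5 had 250, 279 and 319 CPM, Tubb2a had 91.4, 104 and 120, and Tubb2b had 127, 104 and 153. These 3 members, which are higher in OPCs than in MOL5/6, had log2 ratios to control dOLCs of 0.35 (0.17 to 0.54), 0.39 (0.08 to 0.69) and 0.27 (0.00 to 0.54). Tubb4b (126, 117 and 137 CPM) and Tuba1b (180, 160 and 192 CPM) overlapped between libraries, Tuba4a had between 1 and 19 UMIs, and Tuba1c had 1 UMI in control dOLCs and 0 in the other libraries. A count of 0 in ectopic OPCs allows a level of up to 2.50 CPM, taken as 3 counts of the total.

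Of the 8 members past the filter in OPCs against control dOLCs, Tubb3 was higher and Tubb4a lower by 1.5-fold or more, with a background of 5.34% higher and 5.79% lower among 6110 genes. Tubb3 passed the filter only through the ectopic library here too. The median log2 ratio was 0.21 over the 7 members without Tubb3 and 0.08 over all genes. Against control vOLCs, Tubb3 alone of 8 was past 1.5-fold, with a background of 18% higher and 9.77% lower. Between control vOLCs and control dOLCs, Tubb4a alone of 7 was lower, with a background of 10.8% higher and 12.1% lower.

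The 7 mature oligodendrocyte markers moved with Tubb4a in OPCs. They summed to 10128 CPM in OPCs of control dOLCs, 4649 for control vOLCs and 4481 for ectopic vOLCs, and all 7 were lower by 1.5-fold or more in ectopic OPCs than in those of control dOLCs (background 5.79%). Between the controls, 6 of the 7 were lower in control vOLCs (background 12.1%). In an alternative added with the values known, OPCs were limited to cells in which these markers held at most 0.5% of UMIs, which left 77, 71 and 232 cells and marker sums of 4158, 3695 and 3755 CPM. Among these cells Tubb4a had 480, 361 and 330 CPM, with log2 ratios of −0.54 (−0.86 to −0.22) against the dorsal and −0.13 (−0.49 to 0.24) against the ventral control. The part of mature cells or their RNA in the level of Tubb4a was not tested beyond this. Tubb3 had 20.9 CPM from 5 UMIs, 4.25 from 1 UMI and 132 from 114 UMIs in the same cells.

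The sum over the family in OPCs depended on the control. The 10 members summed to 3009 CPM for control dOLCs, 2424 for control vOLCs and 3225 for ectopic vOLCs, so that the controls were further apart (log2 ratio −0.31, −0.41 to −0.21) than ectopic vOLCs and control dOLCs (0.10, 0.04 to 0.16). Against control dOLCs, the beta members without Tubb3 were lower by 168 CPM, of which Tubb4a accounted for more than the whole, being lower by 303 CPM, while Tubb3 was higher by 118 CPM. In the OPCs with few UMIs of mature oligodendrocyte markers, the beta members without Tubb3 had 1127 CPM in control dOLCs and 1087 in ectopic vOLCs. Their log2 ratio was −0.05 (−0.25 to 0.15), an interval that holds the −0.21 of all OPCs, so that a change of the gap was not detectable. Tubb4a was still at −0.54 (−0.86 to −0.22) in these cells. In all OPCs, the beta sum with Tubb3 was at a log2 ratio of −0.06 (−0.15 to 0.03). Against control vOLCs, the beta members without Tubb3 were at 0.06 (−0.10 to 0.23) and the 10 members at 0.41 (0.31 to 0.52), most of it Tuba1a, which was higher by 603 of 800.5 CPM.

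The members were also set beside Tubb3 in single ectopic cells, where MOL5/6 and OPCs differed. After thinning to 1000 UMIs, 149 of 1842 ectopic MOL5/6 cells held Tubb3, and the other 9 members averaged 4.89 UMIs in these cells and 4.85 in the rest. In ectopic OPCs, the averages were 3.55 UMIs in 42 cells with Tubb3 and 2.93 in 288 without. Among single members there, Tubb5 averaged 0.476 UMIs with Tubb3 and 0.302 without, and Tuba1a 2.17 and 1.75. Tuba1b (0.190 and 0.208) and Tubb2b (0.119 and 0.142) went the other way. The rank correlation between Tubb3 and the other 9 members was −0.00 over the MOL5/6 cells and 0.11 over the OPCs, and at such sparse counts these are descriptions only.

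The genes whose levels were most like those of Tubb3 were compared over 27 sums of a library and cluster and 11772 genes, on log2(CPM + 10). They were Arhgap15 (Pearson's r 0.87), Cdk5rap1 (0.76), Ppp1cc (0.73), a catalytic subunit of protein phosphatase 1, Sys1 (0.73) and Tdo2 (0.73). No other tubulin was among them. Arhgap15 had 1.55, 3.42 and 25.0 CPM in MOL5/6 of control dOLCs, control vOLCs and ectopic vOLCs, and 1.14, 0 and 5.82 in OPCs, where Tubb3 was at 131. Ppp1cc had 108, 108 and 143 CPM in MOL5/6, and Tdo2 had 12, 4 and 37 UMIs. The 27 sums share 3 libraries, and a gene that is high in the ectopic library can score well for that alone.

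Genes that act on tubulin were described by lists, with ratios of CPM only. In MOL5/6, TMM factors shift all genes upward by 0.17 against control dOLCs and 0.15 against control vOLCs. Calls near 1.5-fold in these lists, and the background beside them, thus depend on the scaling. Of 22 genes for the folding and dosage of tubulin (the cofactors Tbca to Tbce, the CCT chaperonin, prefoldin and Ttc5), 21 were in the table and passed the filter in MOL5/6. Against control dOLCs, 1 was higher and 0 lower by 1.5-fold or more, with a background of 1.13% and 11.5%, and the median log2 ratio was 0.04. Against control vOLCs, 1 was higher and 1 lower (Tbcel, −0.62), with a background of 1.46% and 12.4%. The higher gene was Ttc5 in both, which is no chaperone itself but recognises newly made tubulin and starts the decay of tubulin messenger RNA when free tubulin is in excess. It had 28.7, 29.8 and 47.3 CPM in control dOLCs, control vOLCs and ectopic vOLCs, a log2 ratio of 0.72 (0.53 to 0.91) to control dOLCs and 0.67 (0.34 to 1.01) to control vOLCs. In OPCs it had 38.1, 48.1 and 54.1 CPM, with ratios of 0.51 (0.03 to 0.97) and 0.17. The prefoldin subunit Vbp1 and the chaperonin subunit Cct4 followed at 0.43 and 0.28 in MOL5/6, and the lowest were Tbcd (−0.57), Tbcel (−0.35) and Tbcc (−0.10).

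Of 10 tubulin-binding and severing genes, 6 passed the filter in MOL5/6, and 2 were lower and 0 higher against control dOLCs. Their median log2 ratio was −0.56. Spast, which encodes the severing enzyme spastin, had 36.9, 32.9 and 19.9 CPM, a log2 ratio of −0.89 (−1.13 to −0.66) to control dOLCs and −0.73 (−1.08 to −0.36) to control vOLCs. Katnal1, a katanin subunit, had 29.2, 27.1 and 17.5 CPM, with ratios of −0.74 and −0.63, and Fign, or fidgetin, had ratios of −0.58 and −0.60. Spast and Katnal1 were past 1.5-fold against both controls and Fign only against control vOLCs, next to a background of 11.5% of genes lower against control dOLCs and 12.4% against control vOLCs. With the TMM shift, only Spast against control dOLCs would be past 1.5-fold, and the background would change as well. The stathmins, which bind free tubulin dimers, differed: Stmn3 was at −0.54, Stmn1 at −0.10 and Stmn4 at 0.08 against control dOLCs. In OPCs, Stmn1 had 890, 395 and 414 CPM and Stmn4 had 760, 504 and 492, both highest in control dOLCs as were the mature oligodendrocyte markers, whereas Stmn3 had 324, 403 and 447.

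Among 18 tubulin-modifying genes, 6 passed the filter in MOL5/6, with 0 higher and 1 lower against control dOLCs (background 1.13% and 11.5%) and a median of −0.10. Agtpbp1, a deglutamylase, was lowest at −0.62 (−0.84 to −0.40), followed by Ttll5 (−0.51) and Svbp (−0.13), and Sirt2, the tubulin deacetylase abundant in myelin, was highest at 0.22 (0.18 to 0.26), with 798, 835 and 930 CPM. Atat1, the acetyltransferase, was at 0.12 and Ttll7 at −0.07. Of 11 genes of the gamma-tubulin complex, 4 passed in MOL5/6 with none past 1.5-fold in either direction, beside the same background, and a median of 0.10. They were Cdk5rap2 (−0.51), Mzt1 (0.04), Tubg1 (0.15) and Mzt2 (0.16). Against control vOLCs, 5 passed, with 1 higher and 1 lower (background 1.46% and 12.4%) and a median of −0.23. In OPCs, against control dOLCs, 19 folding genes passed with 1 higher (Tbca, 0.62), 5 modifying genes with 1 lower, 6 of the gamma-tubulin complex with 1 higher (Mzt2, 0.77) and 4 binding and severing genes with 2 lower, with a background of 5.34% higher and 5.79% lower. Against control vOLCs, 6 of the 19 folding genes were higher in ectopic OPCs (background 18%), and 6 were lower in control vOLCs than in control dOLCs (background 12.1%), so that the count depended on the control. Of the 10 tubulin genes beyond the family described here, only Tubg1 passed the filter, with 27.1, 19.9 and 30.1 CPM in MOL5/6, and together they had between 27.4 and 38.0 CPM in a library. Against control vOLCs, Tubg1 was at 0.60 (0.19 to 1.03), past 1.5-fold, as were 1.46% of genes in that direction.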

How the data were processed

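Oligodendrocyte lineage cells sorted from mice at P90 were profiled with droplet-based single-cell RNA sequencing, as 1 library each of control dOLCs, control vOLCs and ectopic vOLCs. The authors deposited raw UMI counts per gene and barcode, without normalization, and an annotation listing, for every cell they kept, its library, its cluster and its percent of mitochondrial UMIs. The labels name Cell Ranger 2.1.1, Seurat and mm10, and the paper's reporting summary gives the same Cell Ranger version, while its methods text names a later one. The labels place the tissue in motor and cingulate cortex and the methods in the neocortex, with the CC, or corpus callosum, named as the part dissected. The 4 P0 samples carry no group in the labels used here and were not analysed here.

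Cells of the annotation were used as kept by the authors (9291 of 10081 barcodes; no kept cell exceeded 15.0% mitochondrial UMIs), with 23078181, 4846391 and 14293675 UMIs in control dOLCs, control vOLCs and ectopic vOLCs. Doublets were not removed. Scrublet in scanpy marked only 16 kept cells (0.172%) and was taken to have failed, and an added alternative dropped 438 kept cells, those ranked in the top 6% by score. In the kept cells, 39 barcode sequences occurred in 2 libraries. For each library, UMIs of a cell type were added up and scaled to CPM, with cycling OPCs apart. Ratios carry a conditional exact binomial (Clopper-Pearson) interval at 95%. The filter asked for 50 UMIs or more over both libraries and for detection in 10% or more of the cells of either. A ratio was given only where a library had more than 3 UMIs. With 1 library per condition, no test, standard error or p-value was computed.

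The members, lists and comparisons were chosen with earlier results of these data known. Named were the 10 members, the 3 highest and 3 lowest genes of each list in MOL5/6, the 5 genes most like Tubb3 over sums of at least 20 cells, and 3 annotated neighbours on each side. Ttc5 and Stmn values in OPCs, Meg3, Gap43 and Rbfox3 were added after the values were seen. Coding ends and positions came from GENCODE on GRCm38, matched for all 10 members. Runs of 50 bases in the last 500 bases of a transcript were searched in all GENCODE transcripts.

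Alternatives were edgeR's TMM factors, DESeq2's size factors, CPM averaged cell by cell, cells thinned to 1000 UMIs (0 cells were shallower), at most 10% mitochondrial UMIs, cells without neuronal UMIs, equal weight of subclusters, control vOLCs as the control, a 2-fold rule and no filter beyond 1 UMI. Scrublet scores, shared barcodes, the limit on mature oligodendrocyte markers and other scalings and weights of the beta sum were added after the data were seen. The steps were tested on simulated data. Tools were R 4.3.3, edgeR 4.0.16, DESeq2 1.42.0, Python 3.11.15, numpy 2.4.6, scipy 1.17.1, pandas 2.3.3, scanpy 1.11.5 and matplotlib 3.10.9.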

Additional observations from a re-analysis of the deposited data

How the results depend on the processing

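Tubb3 was higher in ectopic vOLCs under every alternative run, with log2 ratios from 3.16 to 3.85 in MOL5/6 and from 2.66 to 5.04 in OPCs. In MOL5/6 it was 3.16 with the 4 subclusters at equal weight and 3.31 with control vOLCs as the control. In OPCs it was 5.04 without neuronal UMIs (9 UMIs against 1) and 2.66 with few UMIs of mature oligodendrocyte markers. TMM factors moved the median log2 ratio of all genes in MOL5/6 by 0.17 and DESeq2's size factors by 0.19. On these scales the other 9 members in MOL5/6 were at 0.36 and 0.37 and all 10 at 0.38 and 0.40. Both factors move every gene alike, so these values bear on the scale and not on stability. Thinning gave 0.17 and 0.19, equal weight 0.019 and 0.039, and control vOLCs 0.13 and 0.15 for the 9 and the 10 members. In OPCs, the 9 and the 10 members were at 0.12 and 0.17 with few UMIs of mature oligodendrocyte markers and at 0.36 and 0.41 with control vOLCs as the control. Against control vOLCs in MOL5/6, TMM and DESeq2 factors turned the beta members without Tubb3 from −0.078 to 0.069 and 0.082 and Tubb4a from −0.12 to 0.031 and 0.044. In OPCs, the beta members without Tubb3 went from −0.21 to 0.059 with control vOLCs as the control. Tuba1b in MOL5/6 was at −0.19 with equal weight, and in OPCs without neuronal UMIs Tubb2a was at −0.30 and Tubb5 at −0.031. In MOL5/6, 0 members were past 1.5-fold after thinning, since Tubb3 was then in fewer than 10% of cells and failed the filter. In OPCs, 1 member was past it without neuronal UMIs (Tubb4a, as Tubb3 failed the filter on UMIs), with few mature markers, with control vOLCs and at 2-fold (Tubb3 in each). Without the filter, 1.5-fold was passed by 6178 of 16036 genes (MOL5/6) and 5289 of 15150 (OPCs), against 659 and 680 with it. No paired analysis was possible because there was 1 library per condition. Depth limits the COP/NFOL/MFOLa cluster, Tuba1c, Tuba4a and the control vOLCs, and the causes of the other shifts were not tested.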
